A study of Mus musculus with 2 samples.

Results

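The genes described here encode 4 ephrins (Efna1, Efna5, Efnb1 and Efnb2) and 5 Eph receptors (Epha2, Epha4, Ephb2, Ephb3 and Ephb4). They were chosen by gene symbol, and all 9 were found among the 28692 genes counted in the single-cell RNA-seq libraries. CD31+ cells were taken with magnetic beads from the mesentery of C57BL/6 mice at postnatal day 8 (P8). Cells of 3 mice were pooled into 1 control library and cells of 3 mice into 1 Flcn iΔEC library. In Flcn iΔEC mice, floxed Flcn is deleted by a tamoxifen-inducible Cre under the Cdh5 promoter, which is active in endothelium, and the labels of both groups list 40 µg of 4-hydroxytamoxifen under the skin on postnatal days 2 and 3.5 and again on days 5 and 6.5. The labels call the other group only "cont", so its alleles are not given, and with 1 library per group no test between genotypes was possible. All intervals below are 95% exact intervals for counting error only, and a ratio called past 2-fold is at least 2 or at most 0.5 among genes with at least 50 UMIs summed over both sides.

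Ephrins are membrane-bound ligands of the Eph receptor tyrosine kinases, so they signal between touching cells, forward through the receptor and in reverse through the ligand. Ephrin-A proteins are held by a lipid anchor and prefer EphA receptors, whereas ephrin-B proteins cross the membrane and prefer EphB receptors, with EphA4 as the best known receptor for both. In vessels, ephrin-B2 is the classical arterial marker and its receptor EphB4 the venous one, and both are also needed in lymphatic vessels, where ephrin-B2 takes part in valve formation.

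The control library held 6814 cells and the Flcn iΔEC library 4459 cells, with median UMIs per cell of 7283 and 8587. They shared 6 cell barcodes. At least 2 UMIs of Cdh5 were required of endothelial cells, which left 566 control cells (8.31% of the library) and 892 Flcn iΔEC cells, and most of the rest were blood-like. Clustering without the 22 ephrin and Eph genes gave 14 clusters, of which 7 could be named from marker genes. They formed an arterial-like class (53 control and 110 Flcn iΔEC cells), a capillary-like class (28 and 17), a venous-like class (70 and 123), a high endothelial venule (HEV)-like class (57 and 75) and a lymphatic-like class of 3 clusters (78 and 298). An unnamed cluster rich in Cxcl12 (132 and 47 cells) carried both arterial and capillary markers. The HEV-like cells also carried blood markers, whose summed level over 9 genes was 2008 and 1216 CPM against 37.2 to 194 CPM in the other 4 classes. Markers of fibroblasts and mural cells summed to 635 and 703 CPM in arterial-like cells against 195 and 76.5 CPM in venous-like cells. Flcn itself was thinly counted, with 143 UMIs (10.2 CPM) in control and 265 UMIs (9.74 CPM) in Flcn iΔEC endothelial cells, a ratio of 0.95 (interval 0.77 to 1.17). Where these UMIs lie relative to the deleted part of Flcn was not examined, so the ratio does not check the label.

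Efnb2 lies at chr8:8617434-8661242 on the minus strand, Epha4 at chr1:77367185-77515088 on the minus strand and Ephb4 at chr5:137350109-137378669 on the plus strand (GRCm38). The 250 bases before the RefSeq start of each are shown, because in lymphatic-like cells Efnb2 and Epha4 were both lower in Flcn iΔEC, at ratios near 0.2, and Ephb4 was not. Capitals mark TGGGAA, the core recognised by the Notch effector RBPJ, searched on both strands. The E-box CACGTG, a palindrome recognised by MiT/TFE factors such as TFE3, was searched in the same windows.
Efnb2, chr8:8661243-8661492, minus strand: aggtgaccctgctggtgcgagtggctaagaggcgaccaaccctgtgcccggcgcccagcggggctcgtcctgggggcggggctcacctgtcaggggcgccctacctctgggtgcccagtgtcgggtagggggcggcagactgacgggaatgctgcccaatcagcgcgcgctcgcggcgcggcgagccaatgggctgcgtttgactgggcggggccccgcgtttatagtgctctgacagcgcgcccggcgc
Epha4, chr1:77515089-77515338, minus strand: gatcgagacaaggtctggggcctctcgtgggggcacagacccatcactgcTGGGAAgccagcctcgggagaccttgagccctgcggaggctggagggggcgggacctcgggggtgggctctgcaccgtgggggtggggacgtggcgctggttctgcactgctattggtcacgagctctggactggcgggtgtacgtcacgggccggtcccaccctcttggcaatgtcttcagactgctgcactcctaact
Ephb4, chr5:137349859-137350108, plus strand: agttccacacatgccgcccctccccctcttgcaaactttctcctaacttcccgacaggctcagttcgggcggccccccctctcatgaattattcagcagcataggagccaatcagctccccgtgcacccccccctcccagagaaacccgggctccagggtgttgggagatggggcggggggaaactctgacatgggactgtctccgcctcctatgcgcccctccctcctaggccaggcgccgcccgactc

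The E-box was in none of the 10 windows of the 9 genes, and it was in 6.02% of the 32851 windows of all genes. TGGGAA was in the windows of Epha4, starting 200 bases before the start, and of Efnb1, where it occurred at 197 and 168 bases before the start, against 21.6% of all windows. A missing match says only that these letters are not in this window.

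Efnb2 was high in arterial-like cells and, in the control library, high in lymphatic-like cells as well. In control it stood at 370 CPM (422 UMIs) in arterial-like, 294 CPM in Cxcl12-high, 237 CPM in capillary-like, 230 CPM (355 UMIs) in lymphatic-like, 122 CPM (182 UMIs) in venous-like and 25.2 CPM in HEV-like cells. In this order the intervals of the neighbours Cxcl12-high and capillary-like overlapped, as did those of capillary-like and lymphatic-like. In the Flcn iΔEC library it stood at 316 CPM (863 UMIs), 212 CPM, 230 CPM, 43.4 CPM (344 UMIs), 65.3 CPM (209 UMIs) and 16.6 CPM in the same classes, so that lymphatic-like cells moved below venous-like cells. Blood-like cells had 4.88 CPM (200 UMIs) and 6.20 CPM (142 UMIs), with up to 6 UMIs in 1 control cell. Whether blood-like cells make Efnb2 themselves was not tested. The arterial-like level was 3.04 times the venous-like level in control (2.55 to 3.64) and 4.83 times in Flcn iΔEC (4.15 to 5.65), and the control value was 4.86 when cells were classed by marker scores. The gene shares its strand with 3 small annotated genes inside its bounds (E230020D15Rik, Gm45074 and Gm45073), so a few of these counts may be theirs.

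Efna5, which encodes ephrin-A5, was nearly limited to arterial-like cells among endothelium. Arterial-like cells had 143 CPM (163 UMIs) in the control and 186 CPM (510 UMIs) in the Flcn iΔEC library, and each other endothelial group shown had 14.3 CPM or less. No UMI was seen in capillary-like cells of either library, which puts the arterial-like level at least 13.5-fold higher in control and at least 13.2-fold higher in Flcn iΔEC, taking 3 counts per library as the floor. The gene was also counted in stromal cells (25 and 28 cells without Cdh5 or Ptprc and with at least 2 UMIs of Col1a2), at 70.6 and 73.1 CPM, below the arterial-like level in both libraries. Efna5 was in 73.6% and 89.1% of arterial-like cells, against 0.103% and 0.124% of blood-like cells. Median UMIs were 14777 and 18171 in arterial-like cells and 7436 and 8237.5 in blood-like cells. At an equal 2000 UMIs per cell, the expected shares with an Efna5 UMI were 23.8% and 29.3%, against 0.0283% and 0.0210%. The part of the fibroblast and mural markers in the arterial-like level was not tested.

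Efna1, which encodes ephrin-A1, a TNF-inducible ligand, was highest in capillary-like cells. The levels there were 360 and 329 CPM in control and Flcn iΔEC, followed by Cxcl12-high cells (231 and 197 CPM) and arterial-like cells (173 and 198 CPM). Venous-like cells had 64.9 and 90.9 CPM, HEV-like cells 36.6 and 46.5 CPM and lymphatic-like cells 38.2 and 30.05 CPM. The order was the same in both libraries down to venous-like cells except that Cxcl12-high and arterial-like cells were level in Flcn iΔEC. Efna1 was therefore higher in arterial-like than in venous-like cells, by 2.67 times (2.08 to 3.44) in control and 2.18 times (1.88 to 2.52) in Flcn iΔEC.

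Efnb1, which encodes ephrin-B1, was low in arterial-like cells, where Efna5 was high. It stood at 77.3 CPM (245 UMIs) and 49.0 CPM (198 UMIs) in HEV-like cells, at 63.6 and 56.4 CPM in capillary-like and at 60.4 and 63.8 CPM in Cxcl12-high cells. Arterial-like cells had 1.76 CPM (2 UMIs) and 3.66 CPM (10 UMIs), the lowest of these groups. Stromal cells had 103 and 62.7 CPM, and markers of fibroblasts and mural cells summed to 426 and 39.6 CPM in Cxcl12-high cells, whose part in the result was not tested. Over the 10 class and library pairs, log2(CPM + 1) of Efnb1 and Efna5 had a Pearson r of -0.91, a description only, since the points share 2 libraries and differ in depth.

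Ephb4, the receptor of ephrin-B2, was high in venous-like and in lymphatic-like cells and low in arterial-like cells. It stood at 235 CPM (352 UMIs) and 245 CPM (785 UMIs) in venous-like cells and at 238 CPM (368 UMIs) and 220 CPM (1743 UMIs) in lymphatic-like cells. The separate intervals of these classes overlapped in each library, which does not show that the levels were equal. In Flcn iΔEC the interval of the ratio between the classes excluded equal levels, with lymphatic-like cells slightly lower. Capillary-like cells had 170 and 150 CPM, arterial-like cells 69.3 and 63.6 CPM and HEV-like cells 36.6 and 60.6 CPM. The arterial-like level was 0.29 times the venous-like level in control (0.23 to 0.38) and 0.26 times in Flcn iΔEC (0.22 to 0.31). With classes from marker scores of single cells, the ratio of venous-like to arterial-like cells was 1.94 in control. Zan lies antisense to part of the gene.

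Epha4, a receptor of both ephrin types, stood at near levels in arterial-like and venous-like cells. In control it stood at 93.1 CPM (106 UMIs) in arterial-like, 91.6 CPM (137 UMIs) in venous-like, 95.4 CPM (27 UMIs) in capillary-like, 42.04 CPM (65 UMIs) in lymphatic-like and 10.4 CPM (33 UMIs) in HEV-like cells. In Flcn iΔEC the values were 44.2 CPM (121 UMIs), 48.1 CPM (154 UMIs), 23.5 CPM (5 UMIs), 8.33 CPM (66 UMIs) and 3.71 CPM (15 UMIs). The ratio of arterial-like to venous-like cells was 1.02 (0.78 to 1.32) in control and 0.92 (0.72 to 1.17) in Flcn iΔEC, so a difference of 2-fold lay outside both intervals.

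The other receptors were low. Epha2, the main receptor of ephrin-A1, ranged from 5.05 CPM (HEV-like) to 35.3 CPM (capillary-like) in control and from 8.41 CPM (arterial-like) to 32.9 CPM (capillary-like) in Flcn iΔEC. Ephb2 and Ephb3 had 0 to 5 UMIs in any of the endothelial classes of either library. They were seen in stromal cells, at 46.2 and 28.7 CPM for Ephb2 and at 19.0 and 31.3 CPM for Ephb3. In arterial-like control cells, 0 UMIs of Ephb2 allow a level of up to 2.63 CPM.

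**Figure D1:**
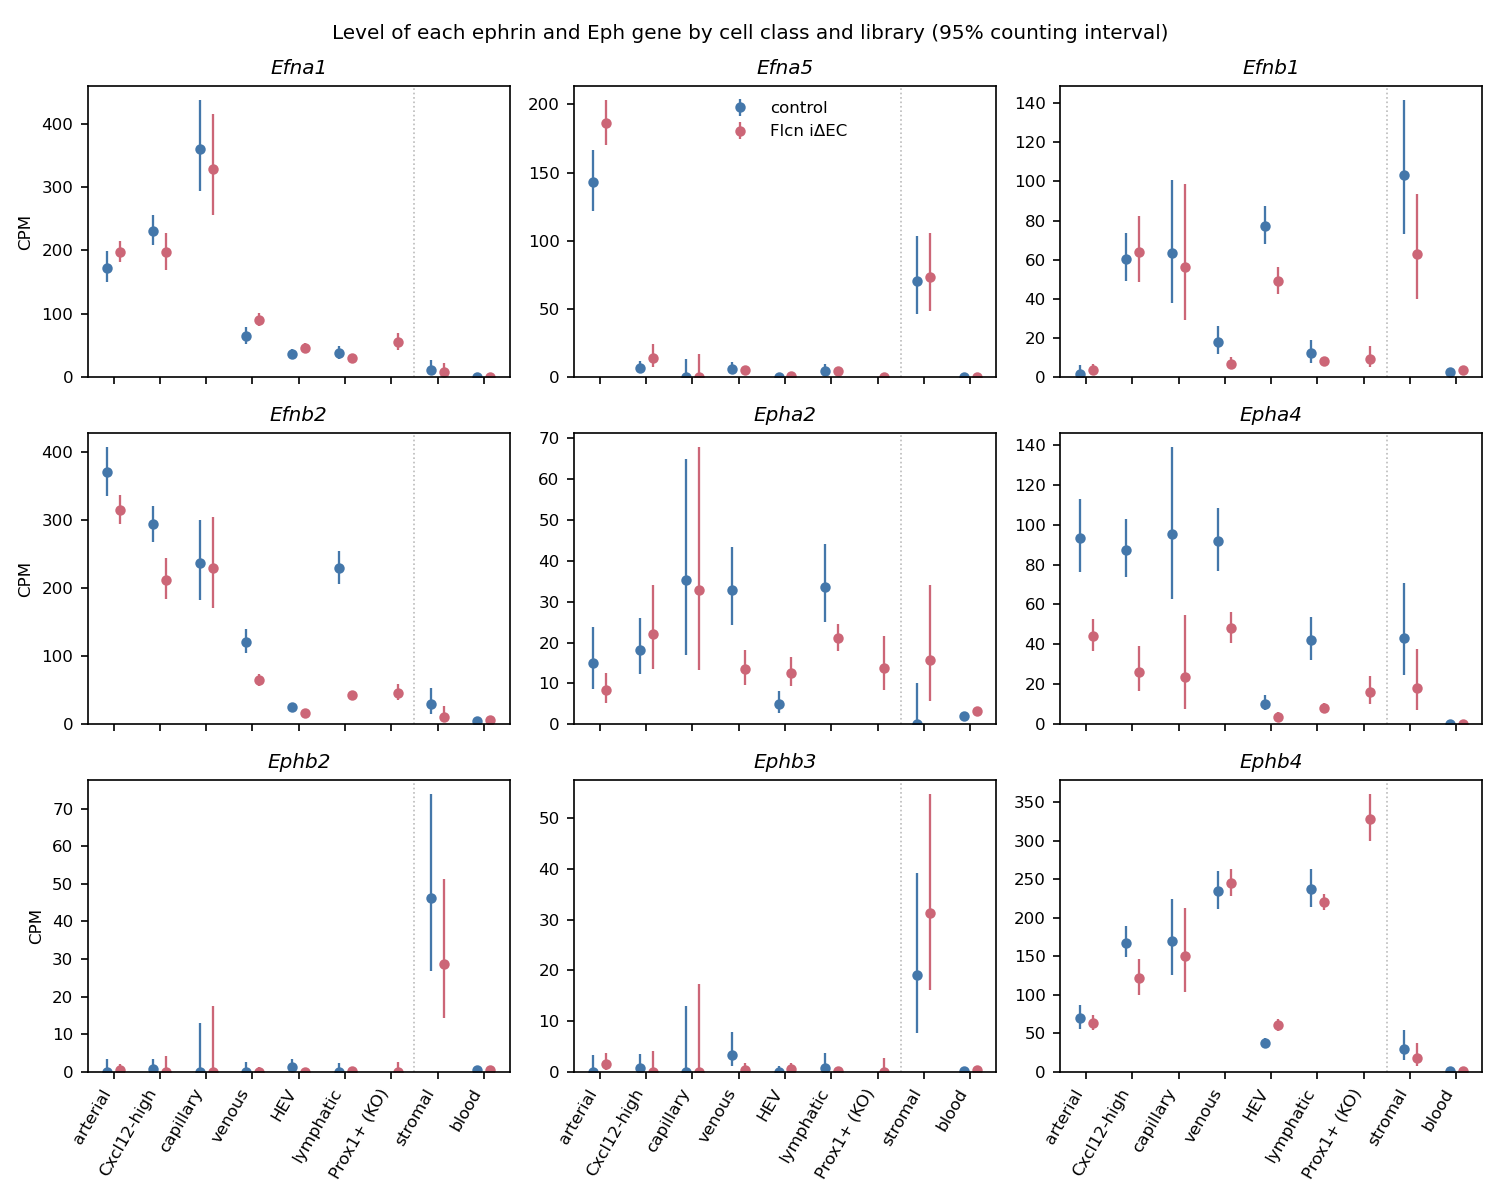
Level of each of the 9 genes in CPM (UMIs of the gene scaled to the total of the group) in the 5 named classes, 2 unnamed endothelial clusters and, right of the dotted line, stromal and blood-like cells. Points are the summed level of 1 library (blue, control; red, Flcn iΔEC), bars are 95% exact Poisson intervals, and the y axes differ. Efnb2 and Epha4 drop in the lymphatic column, from 230 to 43.4 CPM and from 42.04 to 8.33 CPM, while Ephb4 stays at 238 and 220 CPM.

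Counted over the list, 6 of the 9 genes had at least 50 UMIs over arterial-like and venous-like cells of the control library, and 5 of these were past 2-fold. Efna1, Efna5 and Efnb2, all ligands, were higher in arterial-like cells and Epha2 and Ephb4, both receptors, were lower. Efna5 had 163 UMIs in arterial-like and 9 in venous-like cells, so it met the minimum through the side where it was high. Epha2 had 17 and 49 UMIs. The ligand Efnb1 fell short of the minimum, with 2 and 27 UMIs. The members were chosen with earlier results of these data known, so these counts only describe them. Of the 6613 genes compared 13.8% were past 2-fold, 5.41% higher and 8.36% lower. The median log2 ratio of the 6 was 0.72, and that of all genes -0.09. In the Flcn iΔEC library 4 of 6 were past 2-fold, with 12.9% of 8606 genes (5.58% higher and 7.3% lower), and Epha2 was the gene that no longer passed, at 0.63 (0.36 to 1.06). Between HEV-like and venous-like cells 5 of 6 were past 2-fold in control (25.6% of all genes) and 4 of 6 in Flcn iΔEC (22.3%), with Efnb1 the only one higher in HEV-like cells. Between lymphatic-like and venous-like cells 1 of 5 was past 2-fold in control (Epha4, lower, 15.5% of all genes) and 2 of 7 in Flcn iΔEC (Efna1 and Epha4, lower, 17.1%).

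Between the libraries, Efnb2 and Epha4 were lower in the Flcn iΔEC lymphatic-like cells at ratios near 0.2. They were the 2 of 6 genes past 2-fold in this class, where 10.6% of all genes were, 6.3% lower. Efnb2 went from 230 to 43.4 CPM, a ratio of 0.19 (0.16 to 0.22), and Epha4 from 42.04 to 8.33 CPM, a ratio of 0.20 (0.14 to 0.28). On the log2 scale these were -2.40 and -2.33, against a median of -0.18 over the 9608 genes compared. Ephb4 went from 238 to 220 CPM, a ratio of 0.92 (0.83 to 1.04). Efna1 had a ratio of 0.79 (0.59 to 1.07), Epha2 of 0.63 (0.46 to 0.87) and Efnb1 of 0.66 (0.39 to 1.16).

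The lower Efnb2 was seen in each of the 3 lymphatic-like clusters and was not carried by a few cells. The ratio was 0.16 (0.13 to 0.19) in the cluster led by Lcn2, Fgl2 and Lpl, 0.26 (0.19 to 0.34) in the cluster led by Aqp8 and 0.21 (0.11 to 0.39, from 33 and 16 UMIs) in the cluster with the most Lyve1. Epha4 had a ratio of 0.14 (0.09 to 0.22) in the first of these. In the others it fell short of 50 UMIs, with 12 and 24 UMIs (27.1 and 7.67 CPM) in the Aqp8 cluster. The Lyve1 cluster had 0 and 5 UMIs (9.34 CPM), and the floor of 3 counts in its control cells was 12.9 CPM. The median cell had 192 CPM of Efnb2 in control and 24.4 CPM in Flcn iΔEC, and the share of cells without an Efnb2 UMI was 8.97% and 47.7%, although the Flcn iΔEC cells were deeper (median UMIs 14606.5 and 23372). At an equal 2000 UMIs per cell, the expected share with an Efnb2 UMI was 36.2% in control and 8.32% in Flcn iΔEC, against 0.968% and 1.29% in blood-like cells. For Epha4 the shares were 8.45% and 1.72%.

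**Figure D2:**
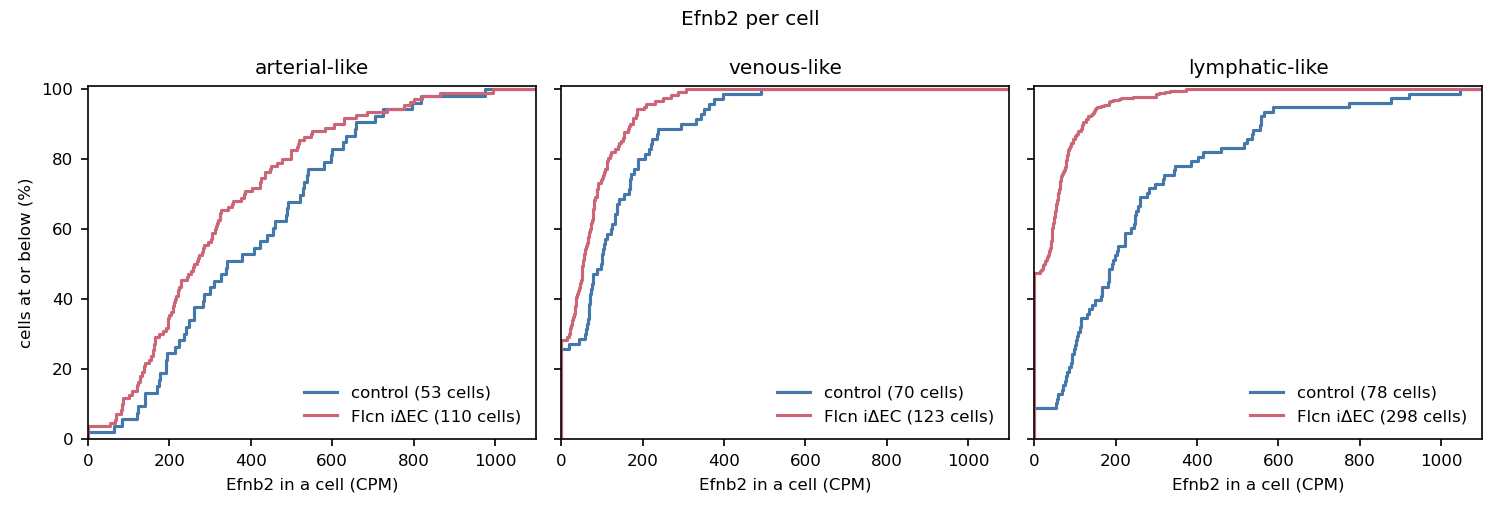
Efnb2 in single cells, as the percentage of cells (y axis) at or below a given CPM (x axis), for arterial-like, venous-like and lymphatic-like cells of the control (blue) and Flcn iΔEC (red) library. The lymphatic-like curves lie furthest apart, with medians of 192 and 24.4 CPM, and the arterial-like curves lie close, with medians of 340 and 264 CPM.

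Other features moved with the lymphatic-like class. Summed over 12 immediate early genes, the level was 4955 and 3364 CPM in lymphatic-like cells of the control and the Flcn iΔEC library, 6747 and 4316 CPM in venous-like cells and 5698 and 5865 CPM in arterial-like cells. Xist, the RNA of the inactive X chromosome, was at 0 CPM in the control and 770 CPM in the Flcn iΔEC lymphatic-like cells, so sex and genotype cannot be told apart. Mitochondrial genes took 4.10% and 4.07% of the UMIs, and the 9 blood markers summed to 104 and 90.4 CPM. The 8 HEV markers summed to 769 and 4530 CPM (3 and 2 of them at 0), and the 12 lymphatic markers summed to 4919 and 4338 CPM. A sum can rest on few genes. With both libraries joined, 1 of the 8 HEV markers was at least 2-fold up against all other Cdh5-positive cells in the cluster led by Lcn2. The number was 1 in the Aqp8 cluster and 0 in the Lyve1 cluster. The other cells include the HEV-like class and the libraries are joined, so these counts cannot show a change between libraries. Foxc2, a transcription factor of lymphatic valves, went from 180 to 55.6 CPM. The part of these genes and lists in the result was not tested.

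In venous-like cells Efnb2, Epha4 and Epha2 were all lower in Flcn iΔEC, and the ligand Efna1 was higher. Efnb2 went from 122 to 65.3 CPM (ratio 0.54, 0.44 to 0.66), Epha4 from 91.6 to 48.1 CPM (0.52, 0.41 to 0.67) and Epha2 from 32.8 to 13.4 CPM (0.41, 0.27 to 0.63). Efna1 went from 64.9 to 90.9 CPM (1.40, 1.11 to 1.78) and Ephb4 stayed at 235 and 245 CPM (1.04, 0.92 to 1.18). Epha2 was the only 1 of 5 genes past 2-fold, with 8.21% of all genes. Prox1 went from 48.8 to 152 CPM and the venous marker Aplnr from 566 to 229 CPM in venous-like cells. The marker lists moved in this class as well. The 10 capillary markers summed to 8534 and 2780 CPM in control and Flcn iΔEC (1 and 3 of them at 0), against 7970 and 10104 CPM in capillary-like cells. The 12 venous markers summed to 5614 and 3167 CPM (1 at 0 in each library) and the 8 HEV markers to 322 and 1272 CPM (2 at 0 in each library). With both libraries joined, 0 of the 8 HEV markers were at least 2-fold up in this class against all other Cdh5-positive cells. Those cells include the HEV-like class, so this count cannot show a change between libraries either. The part of these genes and lists in the result was not tested.

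In arterial-like cells Epha4 was the gene past 2-fold and the ligands were not. Efnb2 went from 370 to 316 CPM (0.85, 0.76 to 0.96), Efna5 from 143 to 186 CPM (1.30, 1.09 to 1.56), Efna1 from 173 to 198 CPM (1.14, 0.97 to 1.35) and Ephb4 from 69.3 to 63.6 CPM (0.92, 0.70 to 1.21). Epha4, 1 of 5 genes, went from 93.1 to 44.2 CPM (0.48, 0.36 to 0.62), with 5.47% of all genes. In capillary-like cells none of the 3 genes with enough UMIs was past 2-fold (8.2% of all genes), and Efnb2 had a ratio of 0.97 (0.66 to 1.43), which was 1.89 without integration, where the class held 72 control and 20 Flcn iΔEC cells. Ephb4 had a ratio of 0.89 in capillary-like cells, which was 0.499 without integration and so past 2-fold.

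In HEV-like cells the receptors Epha2 and Ephb4 were higher in Flcn iΔEC and the ligand Efnb1 lower. Epha2 went from 5.05 CPM (16 UMIs) to 12.6 CPM (51 UMIs), a ratio of 2.50 (1.40 to 4.69), and Ephb4 from 36.6 to 60.6 CPM (1.66, 1.32 to 2.08). Under other ways of forming the class or of averaging its cells these ratios ranged from 1.04 (without integration) to 4.32 (mean of per-cell CPM) and from 1.19 (without integration) to 3.32 (marker scores). Efnb1 went from 77.3 to 49.0 CPM (0.63, 0.52 to 0.77), and Epha2 was the 1 of 5 genes past 2-fold (4.40% of all genes). Efnb1 lies on the X chromosome, and Xist was at 0.316 and 1180 CPM in HEV-like cells of the control and the Flcn iΔEC library. Between the libraries the 8 HEV markers summed to 12484 and 5842 CPM in this class (1 at 0 in each) and 10 heat shock genes to 2851 and 5127 CPM, and their part in the result was not tested. Efnb2 had a ratio of 0.66 (0.47 to 0.92) that turned to the other direction when clusters were joined at a lower resolution (log2 0.03) or cells classed by marker scores (log2 0.27).

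Epha4 was below its control level in all 5 classes and in Cxcl12-high cells, where it went from 87.2 to 26.4 CPM (0.30, 0.19 to 0.47). Its ratio was 0.36 (0.18 to 0.67) in HEV-like cells and 0.25 (0.07 to 0.65, 5 and 27 UMIs) in capillary-like cells. Each of these 6 intervals ended below 1. The 6 groups share the same 2 libraries, and how many of all genes do the same was not counted. Outside endothelium, Epha4 went from 43.4 to 18.3 CPM in stromal cells (0.42, 0.15 to 1.08, from 16 and 7 UMIs). In blood-like cells its ratio was 0.67 (0.22 to 1.81, from 16 and 6 UMIs). In Cxcl12-high cells Efnb2 had a ratio of 0.72 (0.61 to 0.86) and Ephb4 of 0.72 (0.57 to 0.90), and 1 of 6 genes was past 2-fold (6.54% of all genes).

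**Figure D3:**
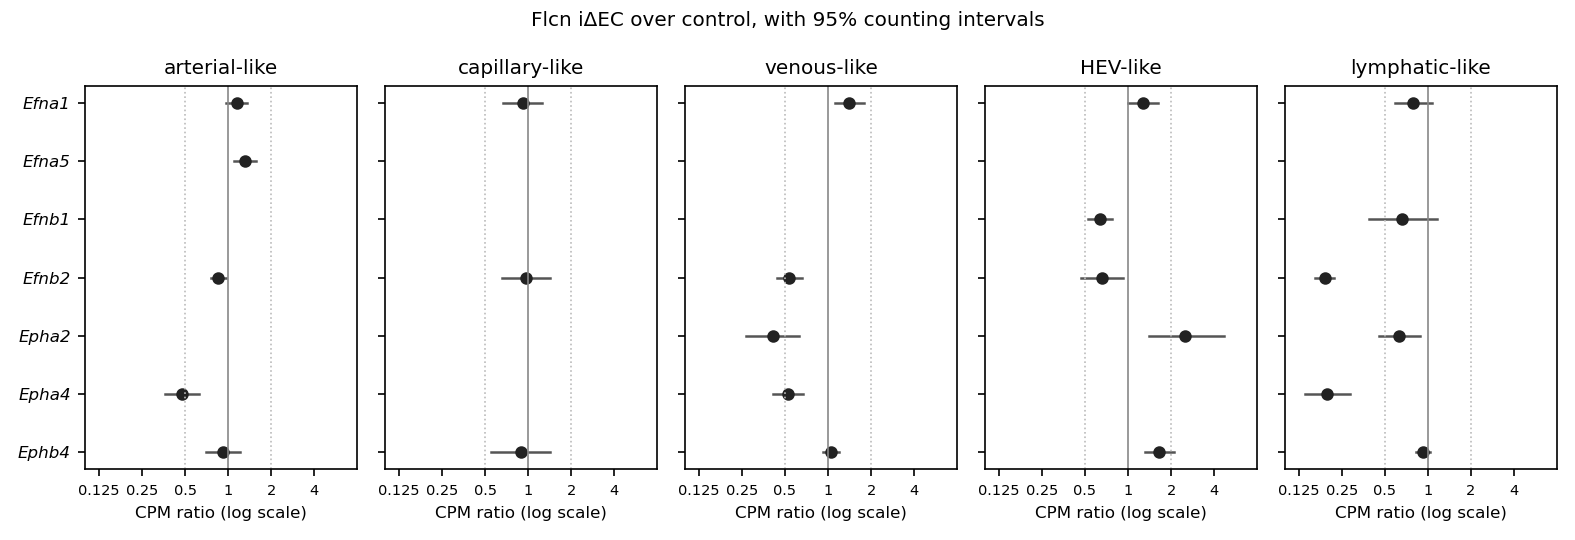
Ratio of the level in the Flcn iΔEC library to the control library for the genes with at least 50 UMIs in a class, on a log axis, with 95% exact intervals for counting error. The solid line is 1 and the dotted lines are 0.5 and 2. Efnb2 (0.19) and Epha4 (0.20) in lymphatic-like cells lie furthest from 1, and Ephb4 lies at 0.92 in the same panel.

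Ephb4 in cells with little Efnb2 was also seen in a cluster of 45 Prox1-positive cells that came from the Flcn iΔEC library alone. Ephb4 stood there at 329 CPM (453 UMIs), 1.34 times (1.19 to 1.51) the venous-like and 1.49 times (1.34 to 1.66) the lymphatic-like level of the same library. Efnb2 stood at 46.5 CPM, 1.07 times (0.81 to 1.40) the lymphatic-like level. Epha4 stood at 15.97 CPM and Efna1 at 55.2 CPM. Of 5 genes, Epha4 alone was past 2-fold against venous-like cells, at 0.33 (9.61% of all genes). Hemoglobin and the other erythroid markers summed to 10085 CPM in this cluster against 24.1 to 89.3 CPM in the named classes, and a cluster of 1 library may be a property of that library.

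**Figure D4:**
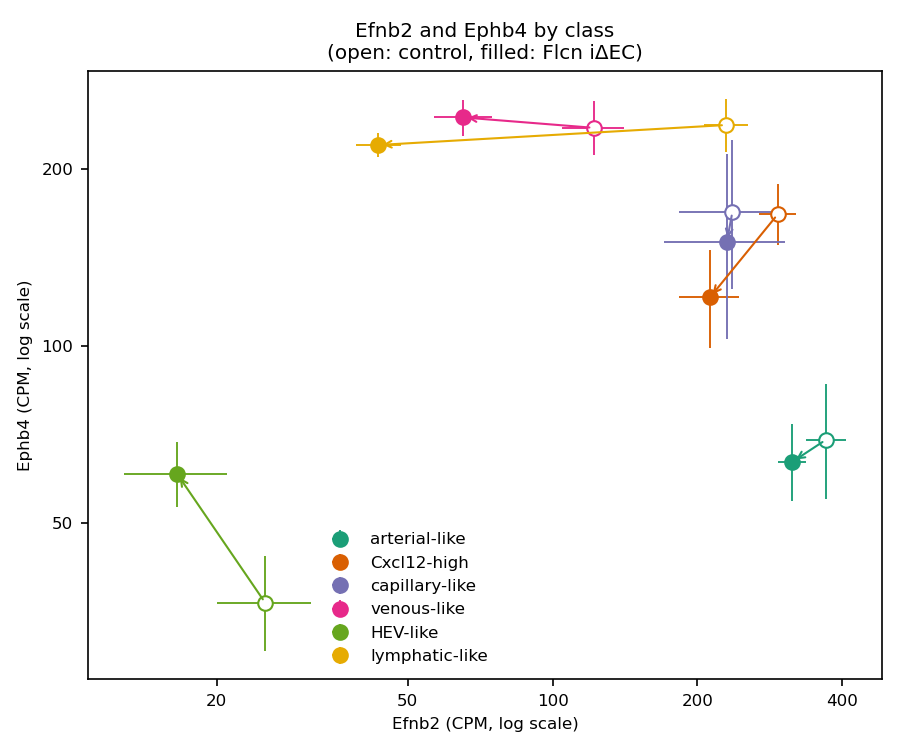
Efnb2 (x axis) against Ephb4 (y axis) in CPM on log axes, for 5 named classes and the Cxcl12-high cluster, with arrows from control (open) to Flcn iΔEC (filled) and 95% exact Poisson intervals. The lymphatic-like arrow runs almost level, from 230 to 43.4 CPM of Efnb2 and from 238 to 220 CPM of Ephb4. It ends to the left of the Flcn iΔEC venous-like point, which lies at 65.3 CPM of Efnb2 and 245 CPM of Ephb4.

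Cells with both an Efnb2 and an Ephb4 UMI were counted after each cell was drawn down to 2000 UMIs in 1 random draw. Both were seen in 14.1% (7.26 to 23.8) of lymphatic-like cells in control and 2.35% (0.947 to 4.78) in Flcn iΔEC. The product of the separate shares was 13.4% and 3.07%. In venous-like cells the shares were 8.57% (3.21 to 17.7) and 3.28% (0.900 to 8.18), and in arterial-like cells 3.85% (0.469 to 13.2) and 6.36% (2.60 to 12.7). In this draw 3 of 52 arterial-like control cells had an Ephb4 UMI, where the expected share was 14.0%. Capillary-like cells had both in 25.9% (11.1 to 46.3) and 0% (0 to 19.5), from 27 and 17 cells. Cxcl12-high cells had both in 14.1% (8.55 to 21.3) and 15.2% (6.34 to 28.9). No blood-like cell had both. Without drawing down, 87.2% and 52.0% of lymphatic-like cells had both.

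The genes whose levels were most like Efnb2 over the 10 class and library pairs, among 6510 genes with a mean of at least 20 CPM, were Cmas (r 0.96), Pkd1 (0.96), Gja4 (0.95), Notch1 (0.95) and Cracr2b (0.94). Gja4, which encodes a connexin of arteries and lymphatic valves, was also used to name arterial-like cells, and it went from 541 to 44.8 CPM in lymphatic-like cells. Notch1, a Notch receptor, went from 169 to 80.3 CPM in the same cells. The closest member of the list was Epha4, with r 0.81. For Ephb4 the nearest genes were Ssr3 (0.97), Plcg1 (0.97), Trim24 (0.95), Sh3gl1 (0.94) and Wbp1 (0.94). The points share 2 libraries and differ in depth, so these values only describe them.

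Of the 13 other ephrin and Eph genes, Ephb1 and Efnb3 reached 20 CPM in a named class. Ephb1, a receptor of B-type ephrins, went from 32.3 CPM (50 UMIs) to 65.4 CPM (518 UMIs) in lymphatic-like cells of Flcn iΔEC, a ratio of 2.02 (1.51 to 2.76). In arterial-like cells it went from 6.14 CPM (7 UMIs) to 17.9 CPM (49 UMIs), a ratio of 2.92 (1.31 to 7.63). It stood at 29.4 CPM in venous-like cells of both libraries (ratio 0.998, 0.69 to 1.46). Several annotated genes overlap Ephb1 on either strand, so its counts are less certain. Efnb3 was seen at 47.0 CPM in capillary-like Flcn iΔEC cells, from 10 UMIs in 7 cells. Epha6 and Epha8 had 0 UMIs in all 1458 endothelial cells.

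Of 23 genes that signal downstream of ephrins and Eph receptors or process them, 17 had enough UMIs to compare arterial-like and venous-like control cells, and 1 was higher and 3 lower past 2-fold, where 5.41% of all genes were higher and 8.36% lower. In Flcn iΔEC, 0 of 18 were higher and 3 lower (5.58% and 7.3% of all genes). Anks1, an adaptor that binds Eph receptors, and Dab2, an adaptor of clathrin-coated pits, were lower in both libraries, at 0.14 (0.05 to 0.31) and 0.44 (0.26 to 0.72) in control and 0.29 (0.20 to 0.40) and 0.30 (0.20 to 0.46) in Flcn iΔEC. Between libraries, 3 of 19 were lower and 0 higher in lymphatic-like cells, where 10.6% of all genes were past 2-fold and 6.3% lower. These were Kalrn, a guanine nucleotide exchange factor, from 52.4 to 18.1 CPM (0.34, 0.26 to 0.46), Rgs3, a regulator of G-protein signalling that binds ephrin-B proteins, from 105 to 38.9 CPM (0.37, 0.31 to 0.45), and Dab2, from 239 to 111 CPM (0.46, 0.41 to 0.53), and Kalrn and Rgs3 were named after their values were seen. The median log2 ratio of the 19 was -0.43, against -0.18 over all genes. In venous-like cells none of 18 were past 2-fold (8.21% of all genes), in HEV-like cells none of 19 (4.40%), and in arterial-like cells Anks1 alone of 17 (5.47%), at 3.05 (1.297 to 8.77).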

How the data were processed

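Both libraries were deposited as UMI counts per gene and cell. According to the labels and the study's methods, the authors made these counts from Chromium Single Cell 3′ v3 libraries, read on a HiSeq3000 and aligned with Cell Ranger 3.0 to mm10 (tool and build per the submitters' processing notes), and removed PCR duplicates. 3′ UMIs count molecules, so levels carry no gene length. The control library held 64639756 UMIs and the Flcn iΔEC library 60805779.

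Cells with at least 2 UMIs of Cdh5 were normalised, anchor-integrated (2000 variable features less the ephrin and Eph genes, 30 dimensions) and clustered (Louvain, resolution 0.8) in Seurat 5.3.0 (R 4.3.3). A cluster was named for the marker list with the largest share of genes at least 2-fold up, with 3 or more markers; it stayed unnamed where another list had more of its 10 leading genes or a larger share of a non-endothelial list was up with none of its own markers leading. The naming rule was set after the clusters were seen. UMIs were summed per class and library and divided by the class total (CPM). Ratios carry exact conditional intervals (scipy 1.17.1) and shares exact Clopper-Pearson intervals. Scrublet (scanpy 1.11.5) called 2.04% and 0.807% of cells doublets, which were kept in the main values and left out in an alternative. Genes named were the 9 members, other ephrins and Eph genes at 20 CPM or more in a named class, partner genes past 2-fold from arterial-like to venous-like cells in both libraries or between libraries in several classes, and the 5 genes most like Efnb2 and Ephb4. The ratio step was checked on simulated counts. Promoter windows are RefSeq starts on GRCm38.p6, gene bounds GENCODE, the same build as mm10. The members and lists were chosen with earlier results of these data known.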

Additional observations from a re-analysis of the deposited data

Results flagged for a closer look

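Epha2 moved in opposite directions between libraries in different classes. Its log2 ratio of Flcn iΔEC to control was 1.32 in HEV-like cells (2.50, interval 1.40 to 4.69), -1.29 in venous-like cells (0.41, 0.27 to 0.63) and -0.67 in lymphatic-like cells (0.63, 0.46 to 0.87). The gene was counted with 16 and 51 UMIs in HEV-like cells, and the ratio there fell as low as 1.04 under other ways of forming the class. With 1 library per genotype the difference between classes was not tested.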

How the results depend on the processing

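The ratio of Efnb2 between libraries in lymphatic-like cells kept its direction and size under the 11 alternatives that give it, from 0.18 to 0.218. The Epha4 ratio there ranged from 0.186 to 0.255. With classes from marker scores of single cells, the log2 ratio of Efnb2 between arterial-like and venous-like cells was 2.28 in control, that of Ephb4 between venous-like and arterial-like cells 0.95 in control and 1.67 in Flcn iΔEC, and 8 ratios between libraries were past 2-fold over the classes instead of 5. That number was 9 with a minimum of 10 summed UMIs and 17 with none. Cells with both Efnb2 and Ephb4 were, in control and Flcn iΔEC, 19.2% and 17.4% (arterial-like), 20% and 13.3% (venous-like) and 40.8% and 6.04% (lymphatic-like) at 4000 UMIs per cell, and 69.8% and 67.3%, 71.4% and 67.5%, and 87.2% and 52.0% without drawing down. The log2 ratio of Efnb2 in HEV-like cells was -0.61 and turned to 0.030 at resolution 0.4 and 0.27 with marker scores; the cause was not tested. Under median-of-ratios scaling Ephb4 in lymphatic-like cells went from a log2 ratio of -0.11 to 0.06. Without integration no cluster passed as venous-like, so the venous-like results have no value there. The mean of per-cell CPM was an alternative chosen after seeing the data. No paired analysis was possible because there is 1 library per group, and for the same reason no replicate could be left out. A level under about 3 UMIs in a class could not be told from 0 at this depth.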
